A study of Mus musculus with 4 samples.

Results

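The 10 myeloid lineage transcription factors *Spi1*, *Cebpa*, *Cebpb*, *Gfi1*, *Irf8*, *Klf4*, *Zeb2*, *Runx1*, *Myb* and *Lmo2* were taken by gene symbol from the expression table of MLL-AF9 leukemia stem cells (LSCs). All 10 were found among its 17104 genes, and all 10 passed the filter on low values described below. The largest differences between genotypes were seen in *Gfi1*, which was higher in CD37 -/- LSCs (mean ratio 2.42), and in *Irf8* and *Zeb2*, which were lower, with 50.6% and 41.5% of the CD37 fl/fl level. The size of the *Irf8* difference rested on CD37 -/- replicate 1, without which its log2 fold change was -0.27 in place of -1.21. None of the 10 passed the test after adjustment over all genes, and neither did any other gene.

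RNA-seq was performed on YFP+, c-kit+ LSCs sorted from the bone marrow of mice with acute myeloid leukemia (AML) 6 weeks after secondary transplantation, with 2 CD37 fl/fl and 2 CD37 -/- replicates. All samples were labelled as male C57. Both groups came from Lin- bone marrow of CD37 fl/fl, Rosa26-CreERT2 donors that was infected with a retrovirus carrying MLL-AF9 and YFP and transplanted into sublethally irradiated C57 mice. The inducible Cre was thus carried by both groups, whereas tamoxifen was given to the primary recipients of the CD37 -/- group and corn oil to those of the CD37 fl/fl group. Recombination was induced in the transplanted recipients of the first round, so that loss of CD37 and earlier exposure to tamoxifen cannot be told apart in this design. LSCs are leukemia cells that can start the disease again in a new host, and CD37 is a tetraspanin, a membrane protein of blood cells. The replicates are described as independent. Whether each came from 1 mouse or from pooled mice is not given in the sources used here, and the p-values measure the spread between these samples.

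Blood lineages are set by transcription factors that activate the genes of one cell type and repress those of another. PU.1 (encoded by *Spi1*) and C/EBPα (*Cebpa*) are required for the granulocyte-monocyte progenitor, and C/EBPβ (*Cebpb*) supports emergency granulopoiesis. GFI1 is a repressor that favors the neutrophil fate over the monocyte fate, while IRF8 and KLF4 favor monocytes, IRF8 also dendritic cells, and ZEB2 acts in monocytes, dendritic cells and hematopoietic progenitors. RUNX1, MYB and LMO2 act in stem and progenitor cells. MLL-AF9 leukemia arises from such progenitors, and its cells keep a granulocyte-monocyte program.

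The bases just upstream of a start site are shown for *Gfi1*, *Irf8* and *Zeb2*, the members with the largest mean differences between the genotypes. They are from RefSeq on GRCm38.p6, were matched by symbol and are written 5′ to 3′ on the strand of the gene. Windows were found for 8 of the 10 factors, and for genes with several start sites the outermost is shown. The *Irf8* and *Zeb2* windows of 250 bases (chr8:120736108-120736357, plus strand, and chr2:45117443-45117692, minus strand) hold no annotated exon of their own gene. Of the *Gfi1* window, the 149 bases next to the start site (chr5:107725806-107725954, minus strand) are shown, as the rest lies in an exon of another *Gfi1* transcript. Capitals mark letters that match the binding motif of a lineage factor on either strand.
Gfi1: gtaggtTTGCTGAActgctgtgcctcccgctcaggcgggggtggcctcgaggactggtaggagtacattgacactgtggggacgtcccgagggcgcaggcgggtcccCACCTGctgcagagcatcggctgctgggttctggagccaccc
Irf8: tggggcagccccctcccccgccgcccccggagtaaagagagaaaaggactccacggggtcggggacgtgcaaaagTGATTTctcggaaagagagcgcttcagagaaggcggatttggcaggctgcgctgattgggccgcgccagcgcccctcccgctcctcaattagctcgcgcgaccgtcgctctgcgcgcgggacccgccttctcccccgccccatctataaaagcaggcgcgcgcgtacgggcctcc
Zeb2: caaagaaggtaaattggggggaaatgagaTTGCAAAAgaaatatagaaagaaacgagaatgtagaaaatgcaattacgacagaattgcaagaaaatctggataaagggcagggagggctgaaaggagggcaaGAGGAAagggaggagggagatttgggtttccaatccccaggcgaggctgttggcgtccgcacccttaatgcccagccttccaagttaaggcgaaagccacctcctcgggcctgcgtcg

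The *Gfi1* stretch holds the C/EBP letters TTNNGNAA 143 bases upstream of the start site. It also holds the E-box letters CAGGTG, which ZEB proteins and other factors bind, 42 bases upstream. Both are read on the opposite strand. The *Irf8* window holds the GFI1 letters AAATCA, read on the opposite strand, 175 bases upstream. In the *Zeb2* window the C/EBP letters, read on the opposite strand, stand 221 bases upstream. The PU.1 letters GAGGAA stand 118 bases upstream on the strand shown. Of all 32851 mouse windows of 250 bases, searched on both strands, 36.8% hold the C/EBP letters, 23.3% those of PU.1, 17.2% the E-box and 12.4% those of GFI1. Letters for RUNX (TGTGGT), MYB (AACNGTT) and IRF (a pair of GAAA repeats 2 bases apart), which 14.0%, 3.80% and 2.98% of windows hold, were also searched and matched in none of the 3 windows. A match is a description of letters and does not show that a factor binds there.

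The values deposited were FPKM (fragments per kilobase of length, scaled by depth), and they came out as whole reads when the kilobases were those of the whole gene span, introns included. FPKM was therefore used for comparisons of 1 gene between libraries, and levels of different genes were compared as recovered reads per kilobase of exon, scaled by the same depth (exon RPKM). Exon RPKM assumes that reads were counted over exons, which was not tested here. If intronic reads were counted too, genes with long introns would stand too high. The recovered libraries held between 15139063 and 22562837 reads. *Cd37*, the deleted gene, had an FPKM of 56.6 and 46.8 in CD37 fl/fl and of 23.2 and 22.9 in CD37 -/- LSCs. The CD37 -/- mean was thus 44.6% of the CD37 fl/fl mean, over the whole gene. In the paper the sites cut by Cre flank only some of the exons, and the other exons are not removed. The part of the transcript these reads came from was not analysed here. The defining markers of the MLL-AF9 program *Hoxa9* (56.3 to 67.9 exon RPKM) and *Meis1* were present in every library. *Meis1* did not overlap, at 6.85 and 7.60 in CD37 fl/fl against 11.7 and 11.3 in CD37 -/- libraries. *Kit*, on whose protein the cells were sorted, was low, at 1.58 and 2.99 against 3.02 and 4.00 exon RPKM, also without overlap. *Cd34* was at most 0.127. *Ptprc*, the last of the 5 progenitor markers, was at 4.78 and 5.20 against 11.0 and 18.1 exon RPKM, without overlap. Such a lack of overlap was seen in 60.8% of all genes tested below (42.2% higher and 18.6% lower in CD37 -/-). Markers of mature neutrophils were abundant and uneven, with a summed exon RPKM over 7 of 7 markers of 5802 (replicate 1) and 909 (replicate 2) in CD37 fl/fl and of 10109 and 7270 in CD37 -/- libraries. The summed erythroid markers (4 of 6 matched) ranged from 6.69 to 82.2 in CD37 fl/fl and from 208 to 735 in CD37 -/- libraries. The T and NK cell markers (4 of 6 matched) summed to 124 and 153 in CD37 fl/fl and to 54.2 and 55.0 in CD37 -/- libraries. Most of this was *Nkg7*, a granule protein of cytotoxic cells, while *Cd3d*, a CD3 chain of the T cell receptor complex, was at most 0.40. The B cell markers (5 of 6 matched) summed to 31.3 and 37.2 in CD37 fl/fl and to 20.8 and 16.2 in CD37 -/- libraries, mostly *Cd79b*, a chain of the B cell receptor.

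In level, the 10 factors spanned from *Spi1* at 182.7 exon RPKM (mean of the 4 libraries) to *Lmo2* at 1.43. *Spi1* was followed by *Gfi1* (90.8), *Myb* (39.5), *Cebpa* (35.9), *Cebpb* (33.7), *Zeb2* (11.1), *Runx1* (7.41), *Irf8* (4.89) and *Klf4* (2.86). *Spi1* stood above *Gfi1*, and *Gfi1* above *Myb*, in ranges that did not overlap over the 4 libraries. From *Myb* downward each factor overlapped with its neighbour, and the order of such neighbours was not resolved. Factors farther apart could be told apart, such as *Myb* (29.4 to 46.5) from *Zeb2* (5.28 to 19.5). Of the 17045 genes with a length, 97.9% had a lower mean level than *Spi1*, 95.6% than *Gfi1*, 51.6% than *Klf4* and 42.2% than *Lmo2*. The levels, order and shares rest on the assumption of reads counted over exons. The span is 12.4 times the exon length for *Spi1*, 18.7 times for *Runx1* and 6.71 times for *Zeb2*. For *Cebpa* and *Cebpb* it is 1 times the exon length. By mean level *Spi1*, *Gfi1*, *Cebpa*, *Cebpb* and *Myb* held the 5 upper ranks, and the monocytic factors *Zeb2*, *Irf8* and *Klf4* lay below them with *Runx1* and *Lmo2*. The boundary itself was not resolved, as *Cebpb* (18.0 to 42.5) overlapped with *Zeb2*.

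**Figure D1:**
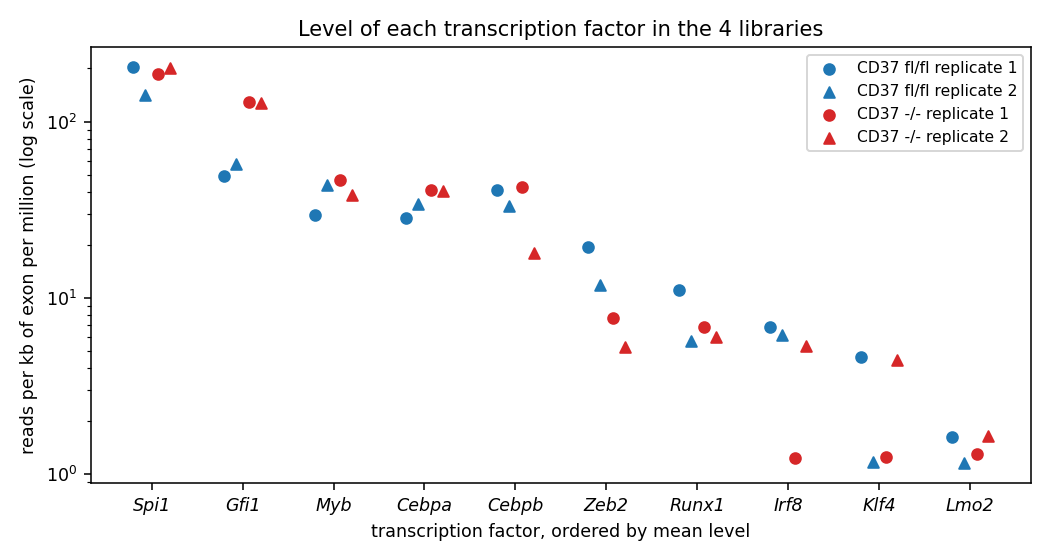
Level of each transcription factor in the 4 libraries, in exon RPKM on a log axis, with 1 point per library (blue for CD37 fl/fl, red for CD37 -/-, circles for replicate 1 and triangles for replicate 2). *Spi1* and *Gfi1* stand apart at the top, the red points of *Gfi1* lie above its blue points, and those of *Irf8* and *Zeb2* lie below.

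To ask whether loss of CD37 moved the lineage factors, log2(FPKM + 0.1) was compared between the genotypes with limma over the 11774 genes whose FPKM averaged 0.1 or more. By limma with Benjamini-Hochberg adjustment, 0 of the 10 factors had an adjusted p under 0.05, against 0% of all genes tested. At an unadjusted p under 0.05 there were 2 of 10, with *Gfi1* higher and *Zeb2* lower, against 22.1% of all genes (16.5% higher and 5.61% lower). Between the groups 4 of 10 factors did not overlap, with *Cebpa* and *Gfi1* higher and *Irf8* and *Zeb2* lower in CD37 -/- LSCs, against 60.8% of all genes (42.2% higher and 18.6% lower). A share of 2 in 10 is close to the background, and 4 in 10 lies below it. With 1 library left out, the factors at an unadjusted p under 0.05 numbered from 1 to 3. *Zeb2* was lost without CD37 fl/fl replicate 1 or CD37 -/- replicate 2, *Cebpb* was added without CD37 -/- replicate 1 and *Irf8* without CD37 -/- replicate 2, where the count over all genes was 1167 in place of 2606. After TPM rescaling (each library brought to the same sum) they were *Cebpa* and *Gfi1*. The median log2 fold change was 0.04 over the 10 factors and 0.23 over all genes tested. That background depended on the scaling, with a median over all genes of -0.03 after quantile normalization, 0.07 after division by the upper quartile and 0.55 after TPM rescaling. The share of higher genes among those at an unadjusted p under 0.05 was 74.7%, and 47.5%, 54.9% and 93.3% under the same scalings. Less RNA per cell and fewer cells of a type cannot be told apart in these bulk samples.

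**Figure D2:**
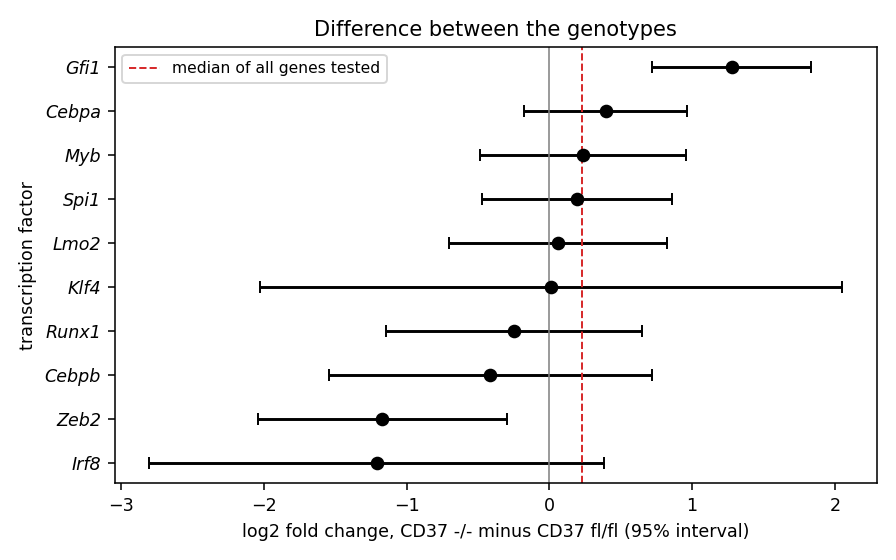
Log2 fold change of each transcription factor (CD37 -/- minus CD37 fl/fl, on log2(FPKM + 0.1)) with its 95% interval, n = 2 in each group; the dashed line marks the median of all genes tested, 0.23. The intervals of *Gfi1* and *Zeb2* leave out 0, on opposite sides, and those of the other 8 factors include it.

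*Gfi1* (ENSMUSG00000029275, chr5:107716657-107726036, GRCm38) encodes the zinc finger repressor of monocytic genes in granulocyte precursors. Its FPKM was 16.5 and 19.3 in CD37 fl/fl replicates 1 and 2 (17.9 ± 1.99, SD, n = 2), and 43.5 and 43.4 in CD37 -/- replicates 1 and 2 (43.4 ± 0.117, SD, n = 2). Both CD37 -/- libraries were thus above both CD37 fl/fl libraries, with 7243 and 9203 reads against 2376 and 3143. The log2 fold change was 1.28 (standard error 0.22, 95% interval 0.72 to 1.83), with an unadjusted p of 0.00187 and an adjusted p of 0.120 (limma, Benjamini-Hochberg). Relative to the median of all genes it was 1.05. By its p *Gfi1* ranked 184 of the 11774 genes, and by its fold change 834 from the highest. Under each scaling, filter and left-out library the difference stayed between 1.09 and 1.66. The antisense transcript A430072P03Rik overlaps *Gfi1* over 880 bases and had 170 to 380 reads in the 4 libraries, which counting without strand would not separate. The summed neutrophil markers were also highest in both CD37 -/- libraries. Of these markers 4 of 7 did not overlap between the groups, all higher in CD37 -/-, and *Camp*, *Mmp8* and *Lcn2* overlapped. Of all genes tested 60.8% did not overlap (42.2% higher and 18.6% lower). In CD37 fl/fl LSCs the summed neutrophil markers differed from 5802 to 909, while *Gfi1* differed from 16.5 to 19.3 in the other direction. Their part in the *Gfi1* difference was not tested.

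*Cebpa* (ENSMUSG00000034957, chr7:35119293-35121928) encodes C/EBPα, needed to form granulocyte-monocyte progenitors. Its FPKM was 28.1 and 33.8 in CD37 fl/fl against 40.7 and 40.3 in CD37 -/- LSCs. The groups did not overlap, and the CD37 -/- mean was 1.31 times the CD37 fl/fl mean. The log2 fold change of 0.39 had a 95% interval of -0.18 to 0.97 and an adjusted p of 0.336 (limma, Benjamini-Hochberg), and 0.16 remained relative to the median of all genes. *Cebpb* (ENSMUSG00000056501, chr2:167688915-167690418), which encodes the related factor of stress granulopoiesis, went from 40.6 and 33.2 FPKM to 42.2 and 18.0. CD37 -/- replicate 1 lay above both CD37 fl/fl libraries and replicate 2 below both. The log2 fold change of -0.41 (interval -1.54 to 0.72) became 0.20 without CD37 -/- replicate 2 and -1.03 without CD37 -/- replicate 1. Both *Cebpa* and *Cebpb* are single-exon genes, for which span and exon length are the same.

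*Spi1* (ENSMUSG00000002111, chr2:91082390-91115756) encodes PU.1, whose dose steers myeloid against lymphoid fates. With FPKM of 16.2 and 11.3 in CD37 fl/fl against 14.9 and 16.2 in CD37 -/- LSCs, the groups overlapped. Its log2 fold change was 0.19, and at this scaling its 95% interval of -0.47 to 0.86 excludes a change of 2-fold in either direction. After TPM rescaling the log2 fold change was 0.57, and the exclusion is not claimed for that scaling. The level of *Spi1* was set from 6550 to 12199 reads per library, so that counting error was small beside the spread between replicates.

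*Irf8* (ENSMUSG00000041515, chr8:120736358-120756694), the factor of monocyte and dendritic cell progenitors, had FPKM of 2.35 and 2.13 in CD37 fl/fl LSCs. In CD37 -/- LSCs it had 0.427 in replicate 1 and 1.84 in replicate 2. Both CD37 -/- values were lower, but they differed from each other by far more than the CD37 fl/fl values did, with 154 reads in replicate 1 and 846 in replicate 2. The log2 fold change of -1.21 had a standard error of 0.63 and an interval of -2.80 to 0.39 (adjusted p = 0.304, limma, Benjamini-Hochberg). Without CD37 -/- replicate 1 it was -0.27, and without CD37 -/- replicate 2 it was -2.15, so that 1 library decided its size. The annotated gene Gm20388 spans *Irf8* on the same strand and was not analysed here.

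*Zeb2* (ENSMUSG00000026872, chr2:44983632-45117395) encodes an E-box binding repressor. Its FPKM was 2.88 and 1.76 in CD37 fl/fl (2.32 ± 0.787, SD, n = 2) and 1.14 and 0.785 in CD37 -/- LSCs (0.962 ± 0.250, SD, n = 2). All reads of *Zeb2* are divided by a span that is 6.71 times its exon length, and its counts of 5901, 4090, 2704 and 2377 reads were higher than its FPKM alone would show. The CD37 -/- libraries lay below the CD37 fl/fl libraries, with a log2 fold change of -1.17 (standard error 0.34, interval -2.04 to -0.30). The unadjusted p was 0.0178 and the adjusted p 0.173 (limma, Benjamini-Hochberg). With CD37 fl/fl replicate 1 left out the unadjusted p from limma was 0.0796, and with CD37 -/- replicate 2 left out it was 0.125. The direction was kept in both, at -0.83 and -0.93.

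*Klf4* (ENSMUSG00000003032, chr4:55527143-55532466), which promotes monocyte differentiation, did not follow the genotype. Its FPKM was 2.60 and 0.672 in CD37 fl/fl against 0.709 and 2.52 in CD37 -/- LSCs. CD37 fl/fl replicate 1 and CD37 -/- replicate 2 were thus high and the other two libraries low, from 62 to 304 reads. It had a log2 fold change of 0.01, with an interval of -2.02 to 2.05 that does not exclude changes of about 4-fold in either direction. The summed markers of monocytes and macrophages were highest in the same 2 libraries, but not every marker followed this order. *Csf1r*, the receptor for macrophage colony stimulating factor, was at 21.0 and 6.35 exon RPKM in CD37 fl/fl and at 6.39 and 24.0 in CD37 -/- LSCs. The chemokine receptor *Ccr2* was at 10.9, 5.37, 4.61 and 14.0 in the same order. The lysosomal *Cd68* was at 211, 117, 74.1 and 146. The 7 of 7 monocyte and macrophage markers summed to 314 and 149 in CD37 fl/fl and to 107 and 225 in CD37 -/- libraries, and none was at 0. Of these 1 of 7, *Cx3cr1*, did not overlap between the groups and was lower in CD37 -/-, against 60.8% of all genes tested without overlap. *Irf8* was lowest in CD37 -/- replicate 1, where the sum was lowest too, whereas *Zeb2* was lowest in CD37 -/- replicate 2. Their part in the values of *Klf4*, *Irf8* and *Zeb2* was not tested. The 5 dendritic cell markers summed to between 0.917 and 2.89 in every library.

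**Figure D3:**
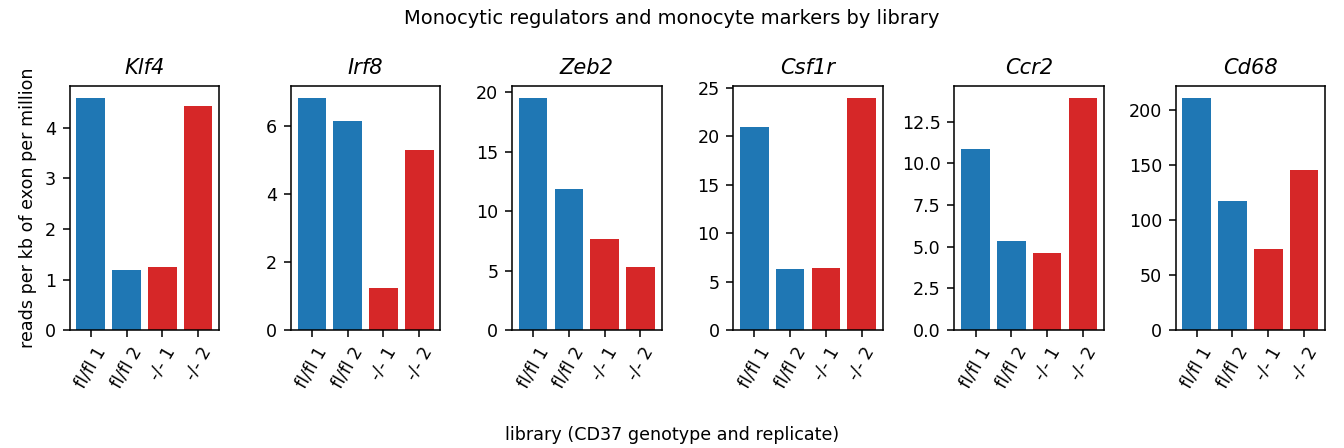
Exon RPKM of *Klf4*, *Irf8* and *Zeb2* and of the monocyte markers *Csf1r*, *Ccr2* and *Cd68*, with 1 bar per library (blue for CD37 fl/fl, red for CD37 -/-) and axes from 0. *Klf4* shares its high bars in fl/fl 1 and -/- 2 with *Csf1r* and *Ccr2*, the low bar of *Irf8* is in -/- 1, and the bars of *Zeb2* descend from 19.5 to 5.28.

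The progenitor factors overlapped between the genotypes. *Runx1* (ENSMUSG00000022952, chr16:92601466-92826149), the DNA-binding subunit of core binding factor, had FPKM of 0.587 and 0.303 in CD37 fl/fl and of 0.363 and 0.322 in CD37 -/- LSCs. Only CD37 fl/fl replicate 1 was high, and the log2 fold change of -0.25 (interval -1.15 to 0.65) was 0.13 without it. The span of *Runx1* is 18.7 times its exon length, and its low FPKM stands for 1180 to 2022 reads per library. *Myb* (ENSMUSG00000019982, chr10:21124935-21160984), which maintains proliferation of progenitors and MLL-fusion leukemia, had 7.20 and 10.8 in CD37 fl/fl against 11.5 and 9.46 in CD37 -/- LSCs. This gave a log2 fold change of 0.24 (interval -0.49 to 0.96), and -0.051 without CD37 fl/fl replicate 1. *Lmo2* (ENSMUSG00000032698, chr2:103957986-103981878), a bridging protein of the TAL1 complex, was the lowest member with 0.145 and 0.104 against 0.118 and 0.150 FPKM. It rested on 43 to 81 reads per library, and 4931422A03Rik, a gene on the opposite strand that overlaps it, had 20 to 40 reads. Between the genotypes *Lmo2* had a log2 fold change of 0.06, with an interval of -0.70 to 0.83.

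Ratios within a library do not depend on the scaling between libraries. The log2 ratio of *Irf8* to *Gfi1*, factors of opposed fates, was -2.85 and -3.21 in CD37 fl/fl against -6.70 and -4.59 in CD37 -/- LSCs. The groups did not overlap, and their means differed by -2.62. The difference was -1.56 without CD37 -/- replicate 1, the library with little *Irf8*, and -3.67 without replicate 2 of that group. The log2 ratio of *Irf8* to *Cebpa* was also lower in CD37 -/- LSCs, at -5.05 and -2.93 against -2.05 and -2.46, and the difference of -1.73 was -0.67 without CD37 -/- replicate 1 and -2.79 without replicate 2 of that group. That of *Klf4* to *Irf8* was higher, at 0.01 and -0.27 against -0.58 and -2.39, and the difference of 1.35 was 0.45 without CD37 fl/fl replicate 2 and 2.26 without replicate 1 of that group. By contrast, *Cebpa* to *Spi1* was -2.84 and -2.05 in CD37 fl/fl against -2.18 and -2.31 in CD37 -/- LSCs, with both CD37 -/- values between the CD37 fl/fl values. *Cebpb* to *Cebpa* and *Myb* to *Cebpb* overlapped as well. The ratios are given as a description, without a test. No share without overlap was taken over other pairs of genes, and of single genes tested 60.8% did not overlap.

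**Figure D4:**
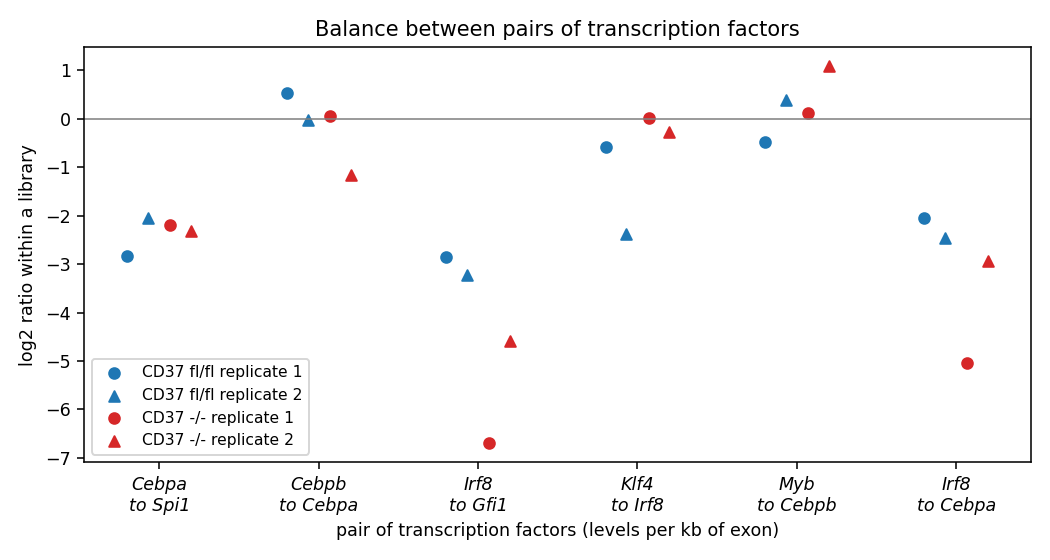
Log2 ratio between pairs of transcription factors within each library, from levels per kilobase of exon (blue for CD37 fl/fl, red for CD37 -/-, circles for replicate 1 and triangles for replicate 2). The red points of *Irf8* to *Gfi1*, at -6.70 and -4.59, lie below the blue points, at -2.85 and -3.21, while those of *Cebpa* to *Spi1* lie between the blue ones.

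Other genes of the same network were read from lists of paralogs, partners, textbook targets and further hematopoietic transcription factors. In the same fit none of their members passed the adjusted threshold of 0.05. Of 18 paralogs 14 were tested, with 1 higher and 2 lower at an unadjusted p under 0.05 and a median log2 fold change of -0.06. *Klf2*, a paralog of *Klf4* and regulator of leukocyte quiescence, was the gene of these lists with the smallest p, at 194 and 143 FPKM in CD37 fl/fl against 32.0 and 35.7 in CD37 -/- LSCs. The difference was -2.30 on the log2 scale, with an adjusted p of 0.107 (limma, Benjamini-Hochberg). *Mybl2*, a cell cycle relative of *Myb*, was at 2.55 and 2.62 against 5.24 and 5.22 FPKM, a log2 fold change of 0.99. *Lmo1*, a relative of *Lmo2*, was at 0.392 and 0.622 against 0.229 and 0.177 FPKM. *Lmo4* had a log2 fold change of 0.47 with no overlap.

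Of 20 partners and cofactors 18 were matched and 17 tested, with 4 higher and 0 lower at an unadjusted p under 0.05 and a median of 0.50. The 4 were *Ets1* (log2 fold change 1.86), a relative of PU.1, *Tcf3* (0.85), a partner in the LMO2 complex, *Rcor1* (0.97), a corepressor recruited by GFI1, and *Ctbp1* (0.65), a corepressor recruited by ZEB2. *Ets1* was at 0.355 and 0.0726 FPKM in CD37 fl/fl and at 0.824 and 1.02 in CD37 -/- LSCs. *Rcor1* was at 0.408 and 0.574 against 0.805 and 1.35.

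Of 26 textbook targets 25 were matched and 24 tested, with 5 higher and 2 lower at an unadjusted p under 0.05 and a median of 0.32. *Csf2ra*, a receptor chain for granulocyte-macrophage colony stimulating factor and a target of PU.1, was at 30.0 and 25.5 FPKM in CD37 fl/fl and at 79.3 and 127 in CD37 -/- LSCs. *Ncf1*, a subunit of the phagocyte oxidase, was at 4.50 and 4.64 against 14.7 and 28.3. *Itgb2*, the β2 integrin chain, was at 5.08 and 3.56 against 12.0 and 17.2. In the other direction *Mpo*, the granule enzyme of early granulocyte-monocyte cells, was at 80.3 and 51.6 against 34.4 and 20.8. The log2 fold changes of these targets were 1.85, 2.14, 1.73 and -1.26, with adjusted p between 0.114 and 0.172 (limma, Benjamini-Hochberg).

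Of 26 further transcription factors 22 were tested, with 4 higher and 1 lower at an unadjusted p under 0.05 and a median of 0.27. *Stat3*, which acts below the receptor of granulocyte colony stimulating factor, was at 2.07 and 1.60 FPKM in CD37 fl/fl and at 3.37 and 5.42 in CD37 -/- LSCs. *Nfe2*, a factor of the erythroid and megakaryocytic lineages, was at 47.9 and 55.5 against 32.9 and 27.3, while the summed erythroid markers were higher in CD37 -/- LSCs. *Nr4a1* and *Elf1* had log2 fold changes of 1.23 and 1.01. The shares of higher and lower genes at an unadjusted p in these lists are to be read beside the 16.5% and 5.61% of all genes.

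**Figure D5:**
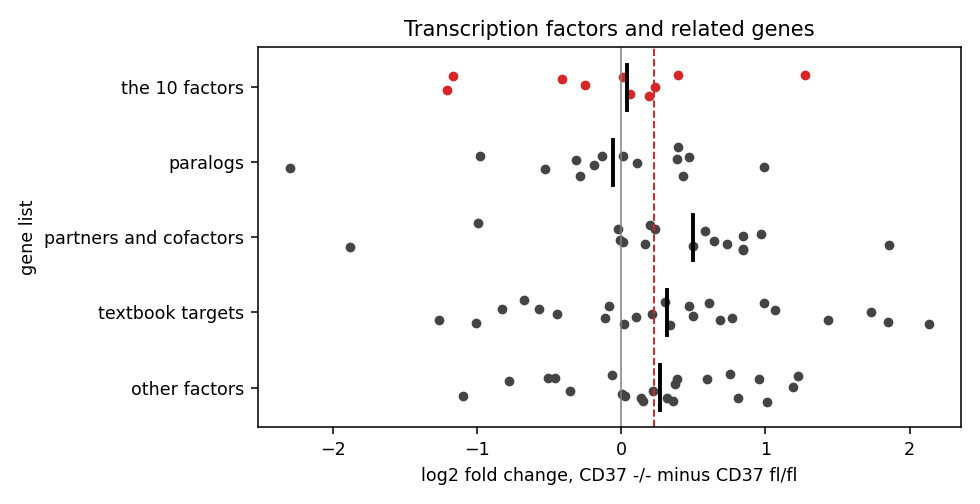
Log2 fold changes (CD37 -/- minus CD37 fl/fl) of the 10 transcription factors (red) and of the tested genes of each list (grey), with 1 point per gene, a bar at each median and a dashed line at the median of all genes tested, 0.23. The medians run from -0.06 for the paralogs to 0.50 for the partners, and each group has genes on both sides of 0.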

How the data were processed

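YFP+, c-kit+ LSCs of 2 CD37 fl/fl and 2 CD37 -/- replicates were profiled by poly(A) RNA-seq with dUTP libraries. The authors deposited FPKM values, 1 column per library, without a log. The submitters' processing notes name fastp 0.20.1, STAR 2.7.7a, featureCounts 2.0.0, edgeR and the mm39 genome. The annotation and the strand setting of the counting are not given in the sources used here.

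Positions and lengths were taken from GENCODE M21 on GRCm38, which matched 17045 of 17104 gene IDs (99.7%). With its gene spans 98.9% of values were whole reads within 0.05 read, against 10% by chance, and with exon lengths at most 12.2% of low values. The spans of the mm39 annotation were not analysed here. The recovered reads per library were 15139063 and 17252340 for CD37 fl/fl against 17638604 and 22562837 for CD37 -/- replicates 1 and 2, and counting error is the only error these depths set. Replicates differed by more than sampling noise.

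Genes whose FPKM averaged 0.1 or more were tested on log2(FPKM + 0.1), a scale that understates changes of low genes, with limma 3.58.1 (eBayes with a trend, R 4.3.3, statmod 1.5.0), two-sided, with Benjamini-Hochberg adjustment. Tables and figures used Python 3.11.15, pandas 2.3.3, numpy 2.4.6 and matplotlib 3.10.9. On simulated data with 11774 genes the test recovered 0% of 67 genes changed by 1 on the log2 scale. It recovered 4.48% of 67 changed by 2 and 31.8% of 66 changed by 3. Recovery with a larger share of changed genes was not tested. The members and lists were chosen with earlier results of these data known. Named are all members, *Cd37* and, of each list without an adjusted p under 0.05, up to 4 genes with the smallest p and no overlap. Marker genes beside results and the genes of the read and overlap checks were named in addition. Alternatives were other pseudocounts, filters, scalings, variance models, thresholds and lengths, a replicate block, limma-voom on recovered reads and each library left out.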

Additional observations from a re-analysis of the deposited data

How the results depend on the processing

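The replicate numbers of the labels gave no sign of pairing in the values (correlation of deviations -0.0586 over 11774 genes). With 2 libraries per group this cannot exclude that samples were handled in pairs. With the replicate block 0 genes were called, and limma-voom on recovered reads with the replicate block called 399 genes, 2 of them members, *Gfi1* (adjusted p = 0.0481) and *Zeb2* (adjusted p = 0.0476); limma-voom without the block called 0. Of the lists, the blocked limma-voom fit called *Klf2* among the paralogs and 4 textbook targets, *Csf2ra*, *Ncf1*, *Itgb2* and *Mpo* (adjusted p from 0.0326 to 0.0488), and 0 of the partners and of the other transcription factors. At an unadjusted p under 0.05, 2606 genes and 2 members were called. Every other alternative called 0 genes. Over the alternatives the adjusted p ran from 0.0481 to 0.386 for *Gfi1* and from 0.0476 to 0.591 for *Zeb2*, and *Gfi1*, *Cebpa*, *Irf8* and *Zeb2* kept their direction in all. The members' median log2 fold change, 0.04, was 0.33 after TPM rescaling and -0.28 after quantile normalization, and ranged from -0.31 to 0.16 with 1 library left out. Near 0, directions turned. After quantile normalization *Klf4* was at -0.28 and *Lmo2* at -0.27, after division by the upper quartile at -0.16 and -0.041, and after TPM rescaling *Runx1* was at 0.050. With 1 library left out *Cebpb* ranged from -1.03 to 0.20, *Klf4* from -0.89 to 0.92, *Lmo2* from -0.069 to 0.19, *Myb* from -0.051 to 0.53, *Runx1* from -0.64 to 0.13 and *Spi1* from -0.064 to 0.45. The cause was not tested. At a mean FPKM of at least 1, *Runx1* and *Lmo2* were not tested. The depth limits *Lmo2* and *Klf4* most, and a group with 1 library left was assumed to vary like the other.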
